A study of Rattus norvegicus with 6 samples.

Results

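The circRNAs described here are the 697 circular RNAs that the deposited table classes as sense overlapping and to which it gives a circBase identifier. They were chosen by those annotations alone, and the read counts had no part in the choice. They make up 6.30% of the 11061 circRNAs in the table and 24.5% of its 2845 sense overlapping circRNAs, and are called members below. Cord tissue came from 8-week-old Wistar rats, with 3 libraries from rats whose cord had been transected (SCI) and 3 from rats given a laminectomy, in which bone over the cord is removed and the cord is left uninjured (sham). The series describes a complete transection in its design text, while its title may mean an incomplete one, and no interval between surgery and collection is stated. No label says whether the 3 libraries of a group are 3 animals, so a p-value here reflects spread among libraries only. The comparison asks which circRNAs differ in the cord after injury.

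A circRNA is a closed RNA loop. It forms by back-splicing, in which a downstream splice donor of a pre-mRNA joins an upstream acceptor in place of the next exon downstream, and the reads that cross this unusual junction count the loop. Loops lack free ends, which shields them from exonucleases, and they are known to be abundant in neurons, where many genes with synaptic roles give rise to them. In the usual classification an exonic circRNA has both junction ends at annotated exon boundaries. A sense overlapping one lies on the strand of its host gene, but the annotation did not place it in the exonic or intronic class. circBase is a public catalogue of circRNAs. An identifier here is what the table enters under that name, and whether these rat junctions stand in circBase itself was not checked. All 697 member identifiers contained the chromosome, start and end of the table's own entry, and all of them cited 1 earlier publication.

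Back-splice junction reads totalled 21255, 20847 and 19603 in the SCI libraries, against 11631, 9805 and 12722 in the sham libraries. Sham replicate 3 stood apart: it held the fewest members with a read, 188, and yet 97 members with 5 or more reads, the most of the sham libraries. Several results that rest on it are therefore given with and without it. Of 27 defining markers of neurons, glia, microglia and vessels, 15 hosted a circRNA somewhere in the table, and 4 hosted a member, the astrocyte glutamate transporter gene Slc1a2 and the neuronal genes Snap25, Map2 and Rims2. None of the 5 microglial defining markers hosted any circRNA, so the cell make-up of the tissue cannot be read from these counts.

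Most members were read only a few times. The total over the 6 libraries had a median of 6 reads per member, quartiles of 3 and 13, and a maximum of 757. In all, 335 members had 5 or fewer reads, 97 had 2 reads, 38 had 50 or more and 15 had 100 or more. The 54 most-read members held as many reads as all the others together. Members were read in 1 library in 185 cases, in 2 libraries in 177, in 3 in 110, in 4 in 92, in 5 in 70 and in all 6 in 63. Each back-splice junction is a single position, so read counts of circRNAs of different lengths can be compared without scaling by length.

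Members were read more often than sense overlapping circRNAs without an identifier. Members averaged 2.61 reads per circRNA and library, against 1.21 for the 2148 sense overlapping circRNAs without an identifier, a mean log2 ratio of 1.06 ± 0.224 (SD over 6 libraries) or 2.09-fold. The ratio lay above 0 in 6 of 6 libraries (two-sided exact sign-flip permutation test within libraries, p = 0.031, the smallest that 6 libraries allow, and 0.0391 once adjusted by Benjamini-Hochberg for 5 class comparisons). It was not seen among circRNAs with 5 or more reads, where the mean log2 ratio was -0.03 (exact permutation p = 0.8125). Members were also detected more often, 47.0% of them per library on average against 24.1%, a difference of 22.9 percentage points ± 8.15 (SD) that was positive in 6 of 6 libraries (exact permutation p = 0.031, adjusted 0.0391). With circRNAs of 5 or more reads it was 18.7 points and did not pass (exact permutation p = 0.0625). Only 26.5% of members were read in a single library, against 76.0% of the sense overlapping circRNAs without an identifier and 30.8% of the 3583 exonic circRNAs with one.

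Set against exonic circRNAs that also carried an identifier, members had slightly more reads. The means were 2.61 and 2.13 reads per circRNA and library, a mean log2 ratio of 0.29 ± 0.0637 (SD over 6 libraries) or 1.22-fold, positive in 6 of 6 libraries (exact sign-flip permutation p = 0.031, adjusted 0.0391). Those read in all 6 libraries made up 9.04% of members, against 1.68% of sense overlapping circRNAs without an identifier and 7.26% of exonic circRNAs with one.

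The share of sense overlapping circRNAs with an identifier climbed with read count and then dropped at the top. It was 9.19% at 2 reads, 22.1% at 3 to 5 reads, 38.6% at 6 to 10, 58.1% at 11 to 20 and 81.3% at 21 to 50. Above that, at 51 or more reads, 37 of 69 sense overlapping circRNAs were members, 53.6% (95% Wilson interval 42.0 to 64.9, counting error only). Among exonic circRNAs the share climbed through every step, 29.3%, 45.5%, 70.7%, 84.2%, 89.4% and 95.1%. Thus 32 of the most-read sense overlapping circRNAs had no identifier.

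**Figure D1:**
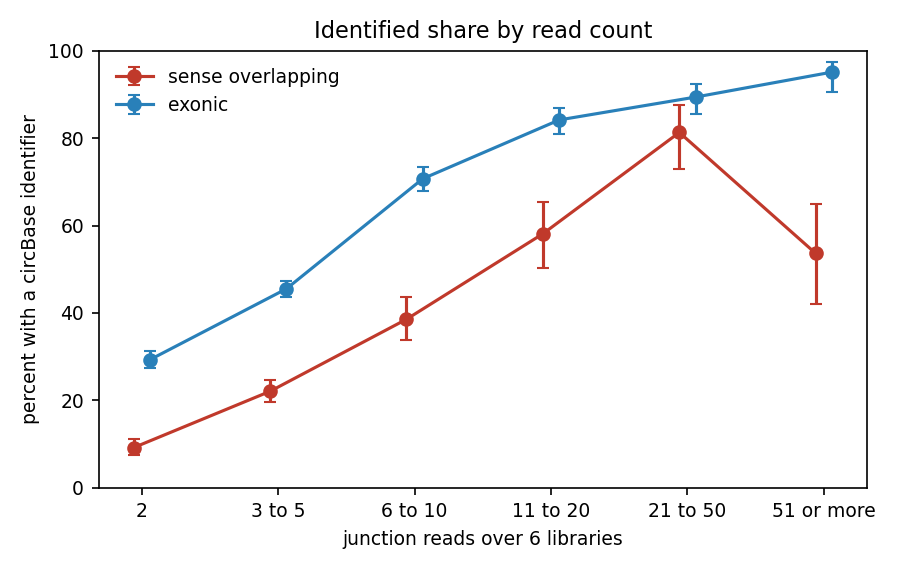
The y axis gives the percent of circRNAs that carry a circBase identifier and the x axis the junction reads summed over 6 libraries, for sense overlapping (red) and exonic (blue) circRNAs with 95% Wilson intervals. The sense overlapping share peaks at 81.3% for 21 to 50 reads and is 53.6% at 51 or more, while the exonic share reaches 95.1%.

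Members spanned from 151 to 92115 bases of genome, with a median of 14802 and quartiles of 4840 and 31436. The median was 10847 bases for sense overlapping circRNAs without an identifier, 11840 for exonic circRNAs with one and 10329 for the whole table. Under 2 kb lay 79 members (11.3%), between 2 and 10 kb 203 (29.1%), between 10 and 50 kb 349 (50.1%) and at 50 kb or more 66 (9.47%). Among the unidentified sense overlapping circRNAs, 24.4% spanned less than 2 kb. The table's predicted length equalled the genomic span for every one of the 697 members, so introns inside the span are counted in it. The same was true of 27.2% of the exonic circRNAs with an identifier, whose median predicted length was 692 bases.

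**Figure D2:**
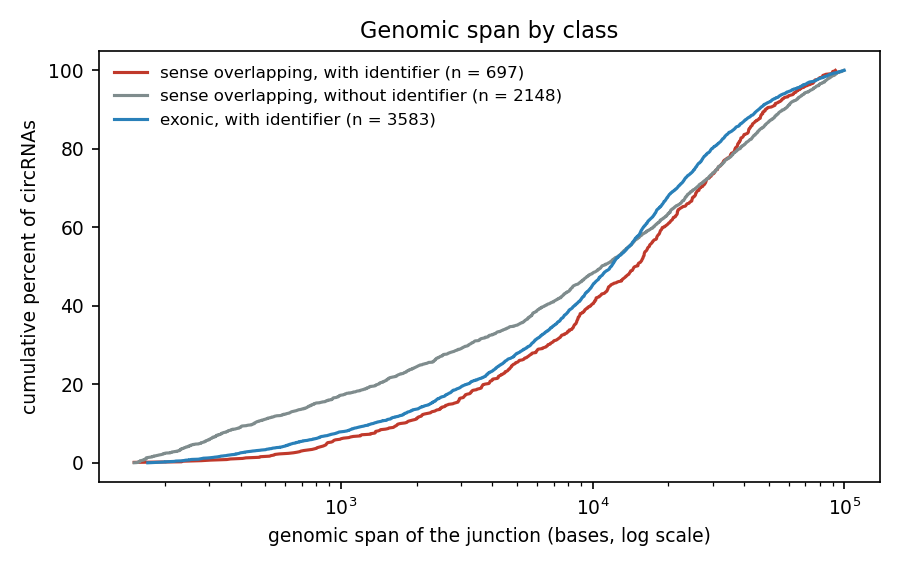
The x axis is the genomic span in bases on a log scale and the y axis the cumulative percent of circRNAs, for members (red), sense overlapping circRNAs without an identifier (grey) and exonic circRNAs with one (blue). The median member spans 14802 bases, and the grey curve starts higher because 24.4% of that class lies under 2 kb.

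Mean reads per member were highest for the shortest spans, while the medians differed little. The 79 members under 2 kb averaged 26.7 reads in all, those from 2 to 10 kb 19.6, those from 10 to 50 kb 12.1 and those of 50 kb or more 9.48. The medians of the same classes were 7, 7, 5 and 6 reads, so the order of the means was not that of the medians. Weighted by reads, the geometric mean span of members was 7573 bases, against 10717 for sense overlapping circRNAs without an identifier, a difference in mean log10 span of -0.15 ± 0.0851 (SD over 6 libraries). It was negative in 5 of 6 libraries and did not pass the test (exact sign-flip permutation p = 0.0625), sham replicate 3 lying the other way at 0.0146. Without sham replicate 3 it was -0.184 (exact permutation p = 0.0625, the smallest that 5 libraries allow). With circRNAs of 5 or more reads the difference was -0.249 (exact permutation p = 0.031). Against exonic circRNAs with an identifier, whose read-weighted geometric mean was 8733 bases, the difference was -0.0619 ± 0.0361 (SD), negative in 6 of 6 libraries (exact permutation p = 0.031, adjusted 0.0391). Sham replicate 3 lay at only -0.000156, so the count of 6 and this p-value rest on the sign of that value. The call against exonic circRNAs was lost without the most-read circRNA of each class, at -0.0511, and with circRNAs of 5 or more reads, at -0.0738 (exact permutation p = 0.0625 each).

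The spans of member reads overlapped between SCI and sham at 50 kb or more, and the groups were apart under 2 kb and from 2 to 10 kb taken singly. Members of 50 kb or more took 5.75% ± 0.179 of member reads across SCI libraries, against 5.66% ± 0.0943 in sham libraries (SD, n = 3 each; two-sided exact permutation p = 0.7). Members under 10 kb took 55.4% ± 1.04 in SCI, against 56.4% ± 2.57 in sham (n = 3 each, SD; exact permutation p = 0.8). Within these, members under 2 kb took 20.3% ± 1.05 in SCI and 17.5% ± 1.73 in sham, and members from 2 to 10 kb took 35.1% ± 1.01 in SCI, against 38.9% ± 1.54 in sham (n = 3 each, SD), given without a test. In these classes the groups did not overlap, since each SCI library lay above each sham library under 2 kb and below each of them from 2 to 10 kb.

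The members came from 509 host genes, 391 of them with a single member, 118 with 2 or more and 18 with 4 or more. By strand, 360 lay on the plus strand and 337 on the minus strand. In 145 hosts every circRNA of the table was a member. In the other 364 hosts members took a median of 37.2% of the host's circRNA reads, and over 50% in 131. One end of a member was often the end of another circRNA: 477 members (68.4%) shared a start or an end with another circRNA of the table, against 35.6% of sense overlapping circRNAs without an identifier and 63.7% of exonic circRNAs with one. An exonic circRNA used the same end in 213 cases, at the member's 5′ end in 102 and at its 3′ end in 113, with 2 members counted under both.

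Members of a single host tended to start at the same place. Of the 118 hosts with 2 or more members, 56 (47.5%) had a single 5′ end common to all their members, the 5′ end being that of the host's strand and so the acceptor side of the back-splice. The same held for 15.4% of hosts with 2 or more unidentified sense overlapping circRNAs and for 21.7% of those with 2 or more identified exonic circRNAs. A single 3′ end was common to all members in 19 of the 118 hosts (16.1%), against 13.6% and 9.51%. Counted in each library over the circRNAs read there, a single 5′ end was found in 54.7%, 53.4% and 57.4% of member hosts in SCI libraries and in 53.6%, 47.1% and 65.4% in sham libraries, from 64, 58, 54, 28, 34 and 26 hosts. The mean of 55.3% exceeded that of unidentified sense overlapping circRNAs, 21.9%, by 33.3 percentage points ± 4.40 (SD over 6 libraries), and that of identified exonic circRNAs, 27.9%, by 27.3 points ± 6.45. Both differences were positive in 6 of 6 libraries (exact sign-flip permutation p = 0.031 each, also after adjustment over the 2). This measure was chosen after seeing the data, and the libraries share the same circRNAs, so the p-values speak only of its steadiness between libraries. Hosts with fewer circRNAs share an end more easily, and with exactly 2 read per host the differences were 35.8 and 24.4 points. Over the whole table, hosts with exactly 2 had a single 5′ end in 51.9% of cases for members. The figures were 17.9% for unidentified sense overlapping circRNAs and 35.0% for identified exonic ones, so the gap to the exonic class was narrower at equal host size.

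Strbp, which encodes a double-stranded RNA-binding protein, was the host with most members. All 10 of its members began at the same 5′ end, position 27141887 on the minus strand of chromosome 3, and ran on for 10102 to 76404 bases. They took 154 of the host's 177 circRNA reads (87.0%), with 34, 46 and 35 reads across SCI libraries, against 32, 6 and 1 in sham libraries. The raw counts did not overlap, but sham replicate 1 came close to the SCI libraries and, set against its smaller total, lay above all of them. The most-read of them, ending at 27066930, had 8, 6 and 9 reads across SCI libraries, against 20, 1 and 1 in sham libraries. Its reads in sham came almost wholly from replicate 1, and its log2 fold change of -0.84 (SE 0.96) had an edgeR adjusted p of 0.971.

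Other hosts repeated the pattern of a fixed 5′ end. Fer, a non-receptor tyrosine kinase gene, had 5 members that all began at 111141071 on the plus strand of chromosome 9, with 16 reads in all. Ptp4a2, which encodes a phosphatase of the PRL family, had 4 members from 151774636 on chromosome 5, plus strand. Together they held all 116 circRNA reads of the host. Slc41a2, a magnesium transporter gene, had 4 from 26651683 on chromosome 7, with 96 of the host's 102 reads. Mtmr7, a myotubularin-related phosphatase gene, had 4 from 54496390 on chromosome 16, with 94 of 96 reads, and Memo1, a gene with a part in cell motility, had 4 from 32248028 on chromosome 6, with 86 of 145.

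Focad, which encodes a focal adhesion protein, had 8 members, of which 6 began at 110426873 on chromosome 5. Their reads were few: together the 8 had 64, of which 23 lay in sham replicate 3. LOC100360606, a host on chromosome 1 known only by its locus name, gave 6 members and no other circRNA. Its 6 members had 104, 122 and 110 reads across SCI libraries, against 45, 48 and 43 in sham libraries. Every SCI library thus had more reads than every sham library, but the groups overlapped once set against the library totals. In all, 3 of its 6 members shared the 5′ end at 211953351.

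Member reads made up more of the junction reads in SCI than in sham. The share of all junction reads on members was 11.95%, 12.3% and 11.3% in SCI libraries, against 11.03%, 10.4% and 10.4% in sham libraries. Every SCI library lay above every sham library. The means were 11.8% ± 0.527 in SCI, against 10.6% ± 0.379 in sham (n = 3 each, SD), a difference of 1.25 percentage points and an exact permutation p of 0.10, two-sided, which is the least that 3 against 3 libraries can give (0.20 once adjusted by Benjamini-Hochberg for 6 measures). The lowest SCI share had a 95% Wilson interval of 10.8 to 11.7 and the highest sham share one of 10.5 to 11.6, so these overlap in counting error. In bulk tissue, fewer cells of a type and less RNA per cell cannot be told apart.

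Within the sense overlapping class the gap was wider. Members took 44.2%, 44.0% and 42.9% of sense overlapping reads across SCI libraries, against 38.6%, 36.4% and 36.4% in sham libraries. The groups did not overlap, with means of 43.7% ± 0.710 in SCI, against 37.1% ± 1.26 in sham (n = 3 each, SD) and a difference of 6.58 percentage points (exact permutation p = 0.10, adjusted 0.20). The exonic class showed the same order: identified circRNAs took 78.3%, 78.7% and 77.2% of exonic reads across SCI libraries, against 74.0%, 77.0% and 74.0% in sham libraries, a difference of 3.11 points (exact permutation p = 0.10). The sense overlapping difference was the larger by 3.47 points, with no overlap between groups (exact permutation p = 0.10), and by 2.11 points without sham replicate 2. Those 2 exonic measures were chosen after seeing the data.

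More members were seen in SCI libraries, which were also larger. Members with at least 1 read numbered 435, 426 and 402 in SCI libraries, against 241, 273 and 188 in sham libraries. After thinning every library to 9805 reads, the percent of members detected was 49.6, 48.5 and 46.3 in SCI libraries and 33.5, 39.2 and 26.3 in sham libraries. The groups still did not overlap, with means of 48.1 ± 1.70 in SCI, against 33.0 ± 6.45 in sham (n = 3 each, SD; exact permutation p = 0.10, adjusted 0.20). Without sham replicate 3 the difference of 15.2 percentage points was 11.8. The table lists a circRNA only where some library has 2 reads or more, which favours the larger libraries by construction. The same measure was higher in SCI in the other classes, 23.5% against 16.9% for unidentified sense overlapping circRNAs and 44.6% against 30.9% for identified exonic ones. When 5 or more reads were asked for at equal depth, 60.2 ± 4.94 members were left in SCI, against 63.8 ± 11.05 in sham (n = 3 each, SD; exact permutation p = 0.7, chosen after seeing the data), and without sham replicate 3 the difference was 1.99 members in the other direction, higher in SCI.

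**Figure D3:**
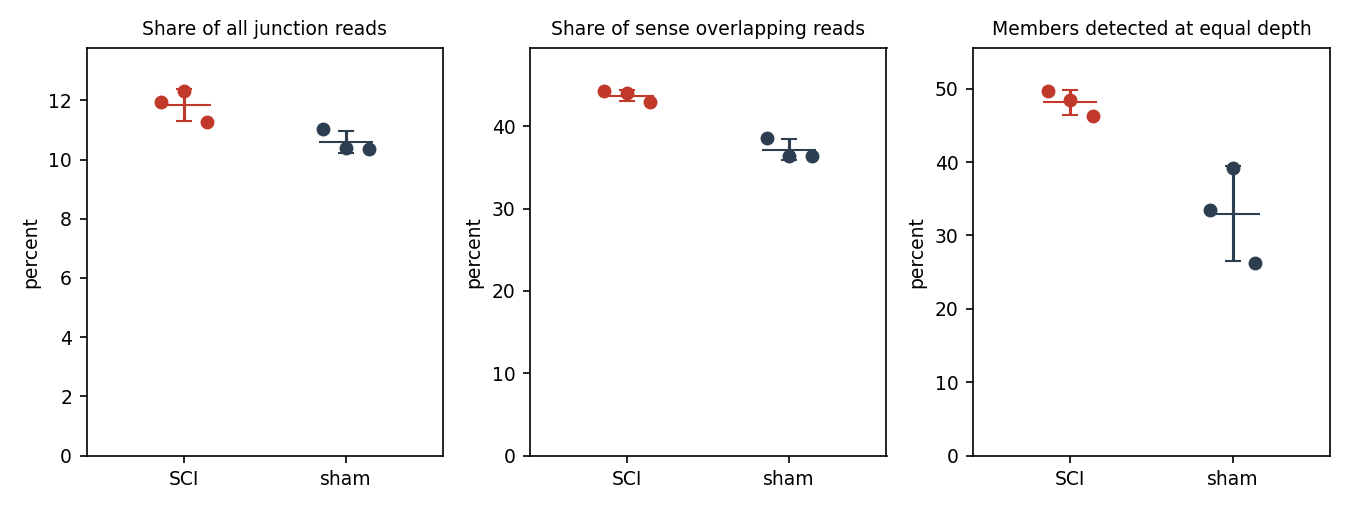
Each point is 1 library, the horizontal bar is the mean and the error bar the SD (n = 3 each), in percent, for the share of all junction reads on members, the share of sense overlapping reads on members and the percent of members detected after thinning to equal depth. In all 3 panels the SCI libraries lie above the sham libraries, by 1.25, 6.58 and 15.2 percentage points on average.

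Across single members no difference between SCI and sham passed the test. Of the 697 members, 82 (11.8%, against 4.38% of the table) had enough reads to be tested, and they held 57.7% of member reads. By edgeR's quasi-likelihood test with Benjamini-Hochberg adjustment over all 484 circRNAs tested, 0 members were higher and 0 lower, against a background of 0% higher and 0.207% lower. Unadjusted, 6 members (7.32%) had p under 0.05, against 6.2% of all circRNAs tested. DESeq2 and limma-voom also called 0 members, and each called 2 of the 484 circRNAs tested. At an unadjusted p under 0.05 they had 11 and 5 members, given without a background. Tested members had a median log2 fold change of 0.15, beside 0.09 for all circRNAs tested, with 49 of 82 positive (59.8%, background 56.2%) and a range from -2.11 to 2.49. The groups did not overlap for 9 members that were higher in SCI (11%, background 9.71%) and 4 that were lower (4.88%, background 5.17%). These shares were near the background. In simulated libraries of this size, 41 circRNAs with 2-fold, 44 with 4-fold and 49 with 8-fold changes passed the filter. Of these, 4.88%, 38.6% and 77.6% were recovered, so 2-fold differences were mostly out of reach at this depth. Changes that failed the filter are not counted, and every circRNA was given the same dispersion. These percents therefore do not cover the members with too few reads to be tested.

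**Figure D4:**
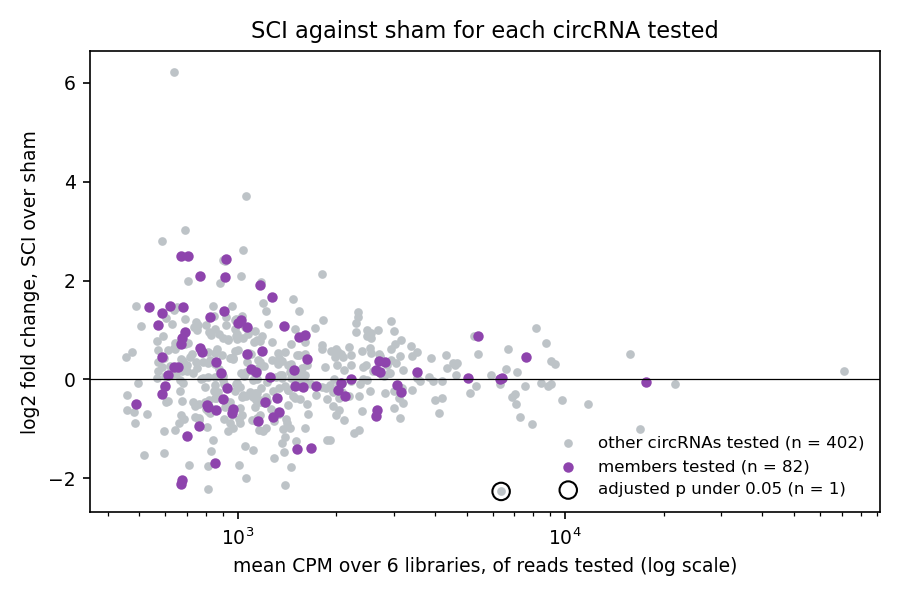
The y axis is the log2 fold change of SCI over sham from edgeR and the x axis the mean CPM over 6 libraries on a log scale, scaled to the reads of the circRNAs tested, for 82 members (purple) and 402 other circRNAs (grey). No member is among the circled calls, and the purple points spread between -2.11 and 2.49 around the same centre as the grey ones.

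The 10 most-read members took 24.6% ± 0.389 of member reads across SCI libraries, against 24.3% ± 0.273 in sham libraries (SD, n = 3 each; exact permutation p = 0.3, adjusted 0.45). The most-read member of all arose from Erbin (RGD1562952 in the table), which encodes a scaffold protein that binds the receptor ERBB2 (chromosome 2, 53079035 to 53084070, minus strand). It had 187, 166 and 136 reads across SCI libraries, against 125, 72 and 71 in sham libraries. These counts followed the library totals, with an edgeR log2 fold change of -0.05 (SE 0.25, adjusted p = 0.989). Each of the 3 Erbin members began at 53084070, and together they held 820 of the host's 834 circRNA reads.

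Regulators of transcription and chromatin supplied several of the others. Crebrf (RGD1310862), a regulator of the unfolded protein response factor CREB3 (chromosome 10, 16616082 to 16623922, minus strand), had 65, 64 and 50 reads across SCI libraries, against 38, 20 and 38 in sham libraries. Elf2, a gene for a transcription factor of the ETS family, had a pair among the 10 from a common 5′ end at 159860727 on the minus strand of chromosome 2. The shorter, to 159839030, had 32, 67 and 45 reads across SCI libraries, against 22, 11 and 45 in sham libraries. The longer, to 159830747, had 35, 30 and 17 reads across SCI libraries, against 24, 15 and 12 in sham libraries. In the shorter, sham replicate 3 equalled the third SCI library, while in the longer it held the fewest sham reads. The log2 fold changes were 0.01 (SE 0.31) for Crebrf and 0.03 (SE 0.42) and -0.25 (SE 0.45) for Elf2, with edgeR adjusted p of 0.999, 0.996 and 0.978.

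Arid1a, a gene for a subunit of the BAF chromatin remodelling complex (chromosome 5, 155632699 to 155635647, minus strand), had 37, 19 and 27 reads across SCI libraries, against 6, 20 and 22 in sham libraries. Slc8a1, the sodium-calcium exchanger gene and a much-studied circRNA host (chromosome 6, 4479924 to 4481753, minus strand), had 55, 26 and 24 reads across SCI libraries, against 19, 25 and 4 in sham libraries. In each of them 1 sham library was far below the others, replicate 1 for Arid1a and replicate 3 for Slc8a1. Their log2 fold changes were -0.12 (SE 0.49) and 0.15 (SE 0.55), both with an edgeR adjusted p of 0.989.

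Kansl1l (LOC367289), a relative of the scaffold subunit of the NSL histone acetyltransferase complex, had the largest excess in SCI among the 10. Its junction at 73506933 to 73508052 on the plus strand of chromosome 9 had 75, 71 and 55 reads across SCI libraries, against 15, 7 and 38 in sham libraries. Sham replicate 3 stood apart from the other sham libraries, and the groups overlapped once scaled. The level was 7092 ± 723 CPM in SCI, against 3765 ± 2648 CPM in sham (n = 3 each, SD, scaled to the reads of the circRNAs tested), an edgeR log2 fold change of 0.88 (SE 0.41, unadjusted p = 0.0488, adjusted p = 0.727). Without sham replicate 3 the log2 fold change was 1.74 with an edgeR adjusted p of 0.0294, the single member called in any alternative. In that setting 3 of all 769 circRNAs tested were called. A longer Kansl1l member, 73506933 to 73539524, shares this 5′ end. It had 33, 19 and 37 reads across SCI libraries, against 11, 9 and 18 in sham libraries, and its edgeR log2 fold change was 0.35 (SE 0.46, adjusted p = 0.971).

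The remaining members of the 10 have no named gene product in the table. LOC100360606 (chromosome 1, 211951683 to 211954201, plus strand) had 65, 93 and 87 reads across SCI libraries, against 27, 39 and 29 in sham libraries. A junction on the plus strand of chromosome 3, 111401969 to 111403965, had 45, 64 and 71 reads across SCI libraries, against 26, 31 and 39 in sham libraries. In both, every SCI library had more reads than every sham library before scaling. The log2 fold changes were 0.45 (SE 0.31) and 0.02 (SE 0.32), with edgeR adjusted p of 0.944 and 0.996.

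**Figure D5:**
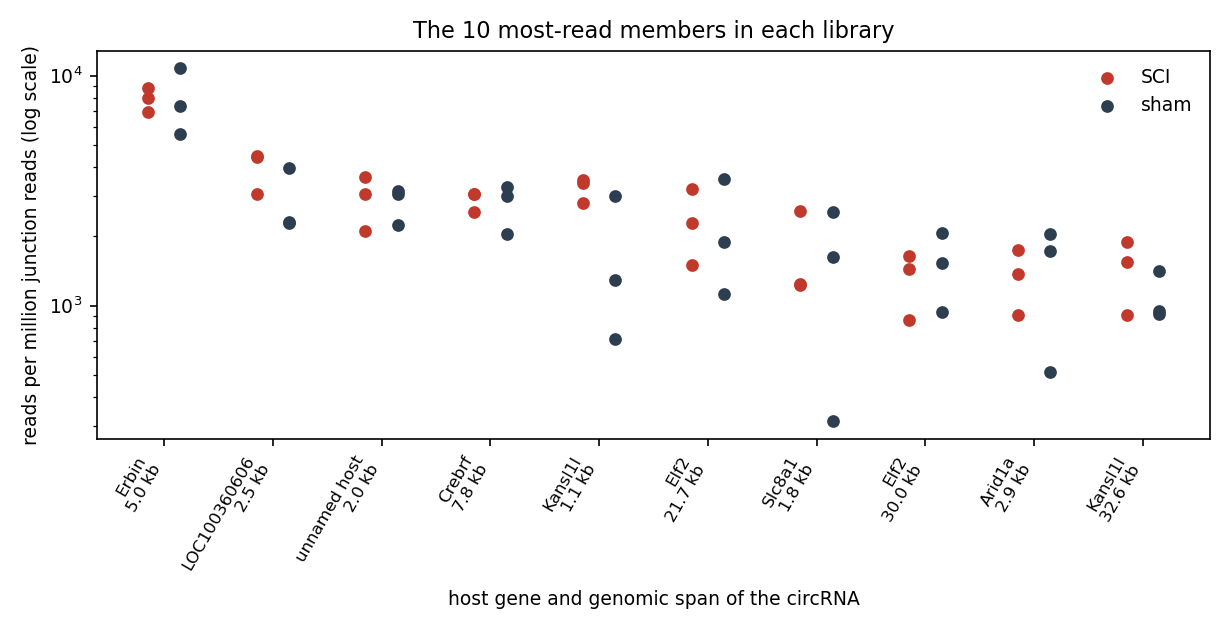
The y axis gives junction reads scaled to the library total on a log scale, each point being 1 library, SCI in red to the left and sham in dark blue to the right, for the 10 members with the highest mean level named by host and span. The groups overlap for each of the 10, and the sham points of the 1.1 kb Kansl1l and the Slc8a1 circRNAs spread widest.

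The members with the smallest unadjusted p in the higher direction all had few sham reads. Mmut, the gene of mitochondrial methylmalonyl-CoA mutase (chromosome 9, 22184240 to 22209002, minus strand), had 19, 19 and 17 reads across SCI libraries, against 1, 4 and 4 in sham libraries. Mllt10, whose protein is a cofactor of the histone methyltransferase DOT1L (chromosome 17, 86580046 to 86612894, plus strand), had 22, 14 and 16 reads across SCI, against 4, 3 and 0 in sham. In both, each SCI library exceeded each sham library more than the library totals do. The log2 fold changes were 1.68 (SE 0.73) for Mmut and 1.91 (SE 0.87) for Mllt10, each with an edgeR adjusted p of 0.727.

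Zswim6, a gene for a zinc finger protein of the SWIM type (chromosome 2, 58111496 to 58133311, minus strand), had 8, 16 and 19 reads across SCI libraries, against 2, 2 and 0 in sham libraries. Gpatch2, a gene for a G-patch protein (chromosome 13, 110343392 to 110351651, plus strand), had 11, 13 and 10 reads across SCI, against 3, 0 and 0 in sham. Zfp251, a zinc finger gene (chromosome 7, 117899492 to 117901161, minus strand), had 11, 15 and 7 reads across SCI, against 0, 0 and 3 in sham. The groups did not overlap in any of them. Fold changes on the log2 scale were 2.44 (SE 0.99) for Zswim6, 2.49 (SE 1.14) for Gpatch2 and 2.49 (SE 1.15) for Zfp251. They depend on very few sham reads, and each had an edgeR adjusted p of 0.727.

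In the lower direction, Elavl3, which encodes a neuronal RNA-binding protein of the Hu family (chromosome 8, 23102894 to 23103421, minus strand), had 13, 3 and 10 reads across SCI libraries, against 16, 7 and 14 in sham libraries. Hmgxb4, which encodes an HMG-box protein (chromosome 19, 25469770 to 25501205, plus strand), had 3, 4 and 4 reads across SCI, against 6, 5 and 9 in sham. These had more reads in sham although the sham libraries were smaller. Scaled to the reads tested, the groups did not overlap. The log2 fold changes were -1.38 (SE 0.66) and -1.70 (SE 0.84), both with an edgeR adjusted p of 0.727.

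Prkd3, a protein kinase D gene (chromosome 6, 1603669 to 1604584, minus strand), had 0, 3 and 4 reads across SCI libraries, against 5, 7 and 4 in sham libraries. Zcwpw2, a gene for a protein with a histone-reading zinc finger domain (chromosome 8, 125584195 to 125632653, minus strand), had 4, 3 and 0 reads across SCI, against 5, 4 and 8 in sham. Ttc3, a ubiquitin ligase gene (chromosome 11, 38199286 to 38201886, plus strand), had 8, 1 and 14 reads across SCI, against 14, 1 and 20 in sham. The groups were apart after scaling for Prkd3 and Zcwpw2 and overlapped for Ttc3, whose second replicate was at 1 read in both groups. The log2 fold changes were -2.03 (SE 1.11), -2.11 (SE 1.08) and -1.41 (SE 0.88), with edgeR adjusted p of 0.786, 0.748 and 0.920.

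Of all members, 376 had reads in both groups, 255 in SCI only (36.6%, against 49.2% of the table) and 66 in sham only (9.47%, against 22% of the table). In every SCI library but with 0 sham reads there were 32 members (4.59%, against 2.87% of the table). The reverse, reads in all 3 sham libraries with 0 SCI reads, held for 0 members (0.0633% of the table). With 61705 junction reads across SCI, against 34158 in sham, these counts favour SCI by depth.

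Among the members with 0 sham reads, Chd9, a chromatin remodeller gene (chromosome 19, 28553528 to 28555140), had the most, with 3, 15 and 8 reads in SCI libraries. With the sham group set at its floor, 3 reads in all, its observed SCI level was 4.80-fold that floor. These members were picked for 0 sham reads and most SCI reads, and the SCI side carries no bound. Such ratios therefore describe the counts and are neither tests nor minimum differences. Reps1, an endocytosis gene, followed with 8, 4 and 8 reads in SCI (3.69-fold the floor). Gas2, a cytoskeleton gene, had 3, 12 and 1, and a member of the SUMO ligase gene Pias2 (73147273 to 73165804) had 12, 2 and 2 (2.95-fold each). The tetraspanin gene Tspan7 had 1, 7 and 6 (2.58-fold). Gas2, Pias2 and Tspan7 each had a single read or a pair of reads in at least 1 SCI library.

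The 5 most-read members with 0 SCI reads each had more reads in sham replicate 3 than in the other sham libraries. An Erbin member from the common 5′ end to 53065597 had 4, 0 and 8 reads in sham libraries. With SCI set at its floor of 3 reads, its observed sham level was 7.23-fold that floor, resting mostly on sham replicate 3. This too describes the counts of a member picked for 0 SCI reads. The most-read member of the histone methyltransferase gene Ehmt1 had 0, 0 and 10 reads in sham, the demethylase-family gene Jmjd1c 0, 0 and 9, and the Focad member from 110426873 to 110475310 also 0, 0 and 9. A Smg5l1 member, 83817554 to 83820026, had 4, 0 and 5. Without sham replicate 3, these Ehmt1, Jmjd1c and Focad members would have 0 reads in every library left.

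By span, the longest members with 10 or more reads were LOC500105 at 89893 bases, Srpk2, an SR protein kinase gene, at 82115 and a further Zcwpw2 junction at 81393. Srpk2 had 4, 8 and 8 reads across SCI libraries, against 4, 2 and 3 in sham libraries. The shortest were Adgrl3, a latrophilin gene, at 234 bases, an unnamed host at 279 and the splicing regulator gene Hnrnph1 at 364. Hnrnph1 had 23, 13 and 11 reads across SCI, against 3, 13 and 11 in sham, overlapping between groups (log2 fold change -0.13, SE 0.65, edgeR adjusted p = 0.993).

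Members were also read by the role of their hosts, in 21 gene lists. Read sums by group are raw, and SCI held 61705 junction reads in all, against 34158 in sham. Of the role lists, the 3 with most reads were RNA-related genes, transcription factors and chromatin genes. Chromatin modifiers and remodellers gave 38 members from 24 hosts, with 459 reads across SCI libraries, against 261 in sham libraries, or 0.742% ± 0.0827 and 0.763% ± 0.0281 of junction reads (SD, n = 3 each). Of 6 members tested 0 passed, with a median log2 fold change of 0.12. Nsd2, a histone methyltransferase gene, had 36, 21 and 29 reads across SCI, against 21, 7 and 7 in sham, overlapping in CPM. Transcription factors gave 25 members from 17 hosts, with 481 reads across SCI, against 247 in sham, of which 4 were tested, 0 passed and the median log2 fold change was -0.14. Zfp609, a gene whose circRNA is much studied in muscle, had 17, 25 and 15 reads across SCI, against 20, 3 and 9 in sham for its 871-base member.

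RNA-binding, splicing and translation genes gave 40 members from 20 hosts, the most of any list. They had 494 reads across SCI, against 318 in sham, or 0.800% ± 0.0848 and 0.942% ± 0.138 of junction reads (SD, n = 3 each), overlapping between groups. Of 9 tested, 0 passed, 3 had a positive log2 fold change and the median was -0.34, beside 0.09 for all circRNAs tested. The most-read member of Eif4e3, a cap-binding protein gene, had 13, 21 and 24 reads across SCI, against 10, 21 and 17 in sham, and that of the deadenylase gene Pan3 had 12, 29 and 12 in SCI and 8, 12 and 16 in sham. Both ranges overlap.

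Protein kinases and phosphatases were the list whose share differed between groups without overlap. Their 26 members from 17 hosts took 0.400%, 0.365% and 0.326% of junction reads across SCI libraries, against 0.267%, 0.245% and 0.181% in sham libraries. The means were 0.364% ± 0.0367 and 0.231% ± 0.0446 (SD, n = 3 each), and 1 of the 21 lists showed such a separation. The lists were not tested. With 3 against 3 libraries an exact permutation p cannot fall below 0.10, which is too large to single out 1 list of 21. Mapk4, an atypical MAP kinase gene (chromosome 18, 69086849 to 69088220), had 18, 21 and 17 reads across SCI, against 7, 6 and 3 in sham, without overlap in CPM. The most-read member of Tlk1, a tousled-like kinase gene, had 12, 14 and 7 in SCI and 0, 5 and 2 in sham. The 2 members tested were these, with log2 fold changes of 0.87 (SE 0.64) and 1.26 (SE 0.98) and an edgeR adjusted p of 0.944 each. A Pik3r1 member of the list, not tested, had 6, 5 and 6 reads across SCI, against 11, 1 and 6 in sham, and did not share the excess in SCI.

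Among transporters and metabolism genes, with 20 members from 17 hosts, 274 reads fell in SCI and 134 in sham, and 0 of 3 tested passed (median log2 fold change 0.15). Besides Slc8a1 and Mmut, the most-read member of the acetyl-CoA carboxylase gene Acaca had 15, 10 and 17 reads across SCI, against 5, 10 and 10 in sham. Small GTPase regulators gave 17 members with 103 reads across SCI, against 69 in sham, 0 of 3 passing (median -0.12). The ubiquitin system gave 16 members, with 91 reads across SCI, against 56 in sham and 0 of 1 passing. Its Ube3a member, from the gene of the ligase lost in Angelman syndrome, had 10, 7 and 5 reads across SCI, against 3, 5 and 10 in sham. Cytoskeleton and motor genes gave 9 members with 59 reads across SCI, against 56 in sham, 0 of 1 passing. Of these, the actin motor gene Myo5a had 18, 9 and 12 reads across SCI, against 6, 3 and 0 in sham. Its log2 fold change was 1.14 (SE 0.926, edgeR adjusted p = 0.944). Members of Evl and Enah, not tested, went the other way. Evl had 5, 0 and 1 reads across SCI, against 5, 3 and 10 in sham. Enah had 3, 0 and 1 reads across SCI, against 0, 0 and 7 in sham. Membrane trafficking and autophagy genes gave 14 members with 52 reads across SCI, against 28 in sham, and 0 were deep enough to test. As mean shares of junction reads, transporters and metabolism took 0.442% in SCI and 0.406% in sham, and small GTPase regulators 0.166% and 0.194%. The ubiquitin system took 0.147% and 0.164%, and membrane trafficking 0.0841% and 0.0864%. Cytoskeleton and motor genes took 0.0956% and 0.156%, so their mean share was the higher for sham, where replicate 3 reached 0.275%. Groups overlapped in each of these lists.

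Synaptic and neuronal host lists were thinly read. Presynaptic genes gave 8 members from 6 hosts, with 25 reads across SCI, against 5 in sham, or 0.0405% and 0.0139% of junction reads. Postsynaptic and synaptic adhesion genes gave 13 members from 11 hosts, with 48 in SCI and 24 in sham, or 0.0772% and 0.0678%. Both shares overlapped between groups. No member of these lists was deep enough to be tested. Rims2, an active-zone scaffold gene with 22 circRNAs in the table, had 3 members, the most-read with 3, 0 and 2 reads across SCI, against 0, 0 and 4 in sham. The most-read of the Csmd1 members, 78123936 to 78140202 on chromosome 16, was read in sham replicate 3 only, 8 times. Neurotransmitter receptor genes gave 4 members with 10 reads across SCI, against 14 in sham, ion channel genes 7 with 25 in SCI and 10 in sham, and axon guidance and adhesion genes 4 with 18 in SCI and 5 in sham. Nalcn, the sodium leak channel gene, had 0, 6 and 5 reads across SCI, against 0 in each sham library. Kcnk9, the gene of the leak potassium channel TASK-3, is outside the lists and was picked after its values were seen. It had 15, 18 and 9 reads across SCI, against 4, 1 and 0 in sham, without overlap in CPM. The difference did not pass the test (log2 fold change 2.08, SE 0.98, edgeR adjusted p = 0.727).

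Glial and vascular marker lists gave few members, but few of their genes hosted any circRNA. Of those that did, 3 of 15 on the astrocyte list and 2 of 24 on the myelin list hosted a member. For comparison, 6 of 36 presynaptic genes and 4 of 43 axon guidance and adhesion genes did so. Myelin and oligodendrocyte markers gave 2 members with 30 reads across SCI, against 5 in sham, astrocyte markers 4 members with 17 in SCI and 6 in sham, and oligodendrocyte precursor markers 1 member with 3 reads across SCI, against 0 in sham. The most-read member of Npas3, a transcription factor gene on the astrocyte list, had 9, 1 and 3 reads across SCI, against 2, 2 and 0 in sham. Microglia, macrophage and leukocyte markers, endothelial and pericyte markers, and the markers of fibroblasts, Schwann cells, muscle, blood and ependyma gave 0 members, though 7, 10 and 14 genes of these lists hosted other circRNAs. Much-studied circRNA hosts gave 32 members from 20 genes, with 833 reads across SCI, against 433 in sham. Of the 9 tested 0 passed, with a median log2 fold change of 0.01.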

How the data were processed

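Per the file headers, the deposited values are raw junction counts for each circRNA in 6 libraries. They also deposited log2 CPM of the same reads, per the file headers. All 66366 log2 values matched a recomputation with edgeR (prior count 0.25) within 1e-06, so the counts alone were used. Bowtie 0.12.2 and mm8 appear in the submitters' processing notes. The build mm8 is one of the mouse and not of the rat. Neither the assembly of the coordinates nor the circRNA caller is stated. Coordinates are as in the table, counted from 1, and are not those of GRCr8: a member on chromosome 4 ends at 246712837, beyond the last GRCr8 gene at 184404305. No genome of that build was used, so no sequence is shown. Host names come from the table, brought to current symbols through the RefSeq table of GRCr8 for 648 of 697 members (549 by symbol, 51 by accession, 48 by synonym). Reads per library were 9805 to 21255. Per library, n is 3 in each group, and all 15 pairs of libraries differed beyond counting noise (chi-square over its degrees of freedom 1.99 to 4.03).

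The test across circRNAs was edgeR 4.0.16 (R 4.3.3), quasi-likelihood, TMM scaling, filterByExpr with minimum count 5 and minimum total 15, group as the only term, Benjamini-Hochberg over all circRNAs tested, with adjusted p under 0.05 called. CPM is scaled to the reads of the circRNAs tested, and SE is the log2 fold change over the square root of F. DESeq2 1.42.0 and limma 3.58.1 (voom) were alternatives, as were other scalings and filters, a replicate block and leaving out each library. Shares used two-sided exact permutation tests (SciPy 1.17.1), and class comparisons an exact sign-flip test over 6 libraries. Thinning was by hypergeometric expectation. Wilson intervals (95%) and the floor of 3 reads cover counting error only, since the reads carry no molecular identifiers. Scripts were tested on simulated counts (519 circRNAs tested).

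The rule for members uses annotations only, but the rule and the 21 gene lists were set with earlier results of these data known. Named members are those past the threshold, the 5 with the smallest p in each direction, the 10 with the highest mean CPM, the 3 longest and 3 shortest with 10 or more reads, the 3 hosts with most members, the 5 most-read with 0 reads in the other group, and up to 3 per list with 3 or more member hosts, of which those that add to the account are given. An item the rule took is not reported here. Other hosts were picked after their values were seen.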

Additional observations from a re-analysis of the deposited data

How the results depend on the processing

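Of 142 recomputed values over groups and classes, 96 kept their direction and their side of the threshold. For SCI against sham, p cannot go below 0.10, or 0.25 with the replicate block. These values therefore stay above the threshold by construction, and only their direction could change. Leaving out any 1 library brings the 6-library tests to 5, where p cannot go below 0.0625, so none can pass by construction. The values then ranged from 1.02 to 1.11 (mean log2 reads, members against sense overlapping circRNAs without an identifier), 0.27 to 0.30 (against exonic with one), 21.2 to 25.4 points (percent detected), -0.0742 to -0.0546 (log10 span against exonic), 31.9 to 34.7 points and 25.6 to 29.3 points (hosts with a single 5′ end). With circRNAs of 5 or more reads these gave -0.0277 for mean log2 reads, 18.7 points for percent detected, -0.249 and -0.0738 for log10 span against unidentified and exonic circRNAs, and -0.33 points for reads on members of 50 kb or more, the reverse of the value with all members. The log10 span against exonic circRNAs was -0.0511 without the most-read circRNA of each class. Leaving out 1 library, the difference in reads on members of 50 kb or more lay between -0.000875 and 0.178 points, that under 10 kb between -1.82 and 0.507, and that in members with 5 or more reads at equal depth between -9.05 and 1.99 members. The causes were not tested. Members called numbered 0 in every setting except without sham replicate 3, where 1 was called, the Kansl1l junction at 1.74. That was 1 of 123 members tested, beside 3 of all 769 circRNAs tested in that setting.

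Replicate numbers were not taken as a pairing, since the labels give none and not every correlation of deviations was over 0.1. Same-numbered libraries correlated at 0.114, 0.0843 and 0.0849, each best with its own number, and the other pairs at -0.0726 to -0.0189. The deviations cancel out within each group, so these correlations are not independent and cannot decide whether the libraries were paired. The replicate block called 0 of 82 members and 2 of all 484 circRNAs tested. At an unadjusted p under 0.05 it had 2 members, given without a background. Settings moved the median log2 fold change of the 484 circRNAs from 0.09 to 0.67 with no filter, 0.30 with limma-voom and 0.23 with the block, so directions near 0 are relative to that shift. Reversed directions among the 10 most-read members were as follows. The unnamed host on chromosome 3, Crebrf and the shorter Elf2 member gave -0.0334, -0.0525 and -0.0174 with DESeq2 size factors, -0.0535, -0.0707 and -0.0576 without TMM, -0.0770, -0.0991 and -0.0852 at a minimum count of 10, and -0.0356, -0.0540 and -0.0176 with DESeq2. The unnamed host gave -0.0343 with limma-voom and -0.000276 with the block. With no filter Erbin, the longer Elf2 member and Arid1a gave 0.534, 0.330 and 0.458, and with limma-voom Erbin and Arid1a gave 0.0175 and 0.00974. Leaving out 1 library at a time gave -0.124 to 0.416 for Erbin, -0.104 to 0.277 for the unnamed host, -0.0542 to 0.323 for Crebrf, -0.201 to 0.692 for the shorter and -0.372 to 0.229 for the longer Elf2 member, -0.354 to 0.319 for Arid1a and -0.225 to 0.850 for Slc8a1. The cause of these was not tested. Counts of 0 and 1 read limit most members: 335 had 5 or fewer reads in all.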
